A study of Lepidobatrachus laevis with 14 samples.

Results

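Hox genes encode homeodomain transcription factors that lie in 4 clusters, A to D, and are numbered by paralog from 1 at one end of a cluster to 13 at the other. In vertebrate embryos low-numbered paralogs are active from the hindbrain and pharynx backwards, and high-numbered paralogs are restricted to the trunk, hindgut and tail, so the set of active paralogs marks position along the head-to-tail axis. In the gut tube Hox genes are transcribed mainly in the mesoderm of the wall, in nested domains along its length. Their levels in embryonic stomachs of Budgett's frog (Lepidobatrachus laevis) were described by cluster and paralog number. They were found as reviewed human UniProt entries named HX followed by the cluster letter and the paralog number, and where an entry had several rows, that with the highest mean count was used. This gave 32 members among 13574 reviewed entries of the deposited count table. Cluster A held 9 members, cluster B 7, cluster C 9 and cluster D 7, and 3 of the 32 entries, HOXB6 and HOXC6 among them, had more than 1 row. Names are those of the human counterparts to which the frog transcripts were assigned, so paralogs with like sequence may have shared or split reads, and such values are uncertain. Human Hox genes under other entry names were not analysed here.

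The study sequenced RNA of the left and right sides of stomachs of wild-type, wild-caught embryos at Gosner stage 19, under a title that names Single-minded 2 in asymmetric stomach morphogenesis. Each side had 7 of the 14 libraries. Of these, 5 libraries a side, replicates 1, 2, 3, 5 and 6, came from single stomachs and carried titles that pair left with right, and 2, replicates 7 and 8, pooled that side of 5 stomachs. The tissue label was stomach throughout, while titles of replicates 1 and 2 read Foregut and Gut. Pools and single stomachs were made into libraries at different facilities, so that pooling and facility cannot be told apart. Nothing beyond the side distinguished the groups by genotype or treatment. Whole tissue was sequenced, so fewer cells of a type and less RNA per cell cannot be told apart in any result below.

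Total counts per library ran from 12174670 to 62707669. The libraries stood apart in 3 sets: replicates 1 to 3 (NNY1-6 in the authors' numbering), replicates 5 and 6 (NNY7-10) and the pools (NNY11-14). The division of the single-stomach libraries is not given by the labels and had been seen in the counts of the whole table, so values that set replicates 1 to 3 against replicates 5 and 6 are descriptions with no test. Where n is given it counts libraries: if a shared title marks 1 stomach, the 10 single-stomach libraries are 5 animals, 3 in replicates 1 to 3 and 2 in replicates 5 and 6, and SDs over them treat both sides of a stomach as independent. Hox members took 0.00833% to 0.0293% of a library's counts. Of the 32 members, 26 passed the filter on low counts. The 6 that did not were HOXC11, HOXC12, HOXC13, HOXD11, HOXD13 and HOXA13, all of paralog number 11 or above. Levels are in CPM, counts scaled to a common library size with TMM factors, which are not corrected for transcript length. No length was available, so levels are compared between libraries for 1 gene and never between genes.

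The set of Hox genes detected differed by library set, and the difference ran with paralog number. Members of paralogs 9 to 13 had few counts in replicates 1 to 3, apart from HOXD9 in all 6 libraries and HOXB9 in right 1 (1.63 CPM), and most were higher in replicates 5 and 6. Of the 32 members, 13 had a higher level in all 4 libraries of replicates 5 and 6 than in any of the 6 libraries of replicates 1 to 3, and 2 were lower without overlap. Of the 26 members past the filter on low counts, 10 were higher and 2 lower. Over all rows tested, which passed the same filter, 18.8% were higher and 18.3% lower by the same reading. Ranges that did not overlap were therefore common in this table. By paralog group, 1 of 7 members of paralogs 1 to 3, 3 of 12 of paralogs 4 to 8 and 9 of 13 of paralogs 9 to 13 were higher. Of the 7 members of paralogs 9 to 13 past the filter, 6 were higher. These 6 had from 1 to 63 counts each over replicates 1 to 3 and from 662 to 1229 over replicates 5 and 6. They could pass the filter largely through the set in which they are high. Their direction, also within the 10 of 26, was therefore partly fixed by the filter and is no support for a difference. By cluster the 13 higher members were 6 of 9 in A, 1 of 7 in B, 4 of 9 in C and 2 of 7 in D. Across the 25 members with more than 3 counts in replicates 1 to 3, Spearman's rho between paralog number and the log2 ratio of mean CPM, replicates 5 and 6 over 1 to 3, was 0.73. This is across genes measured in the same 10 libraries, and is given as a description.

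**Figure D1:**
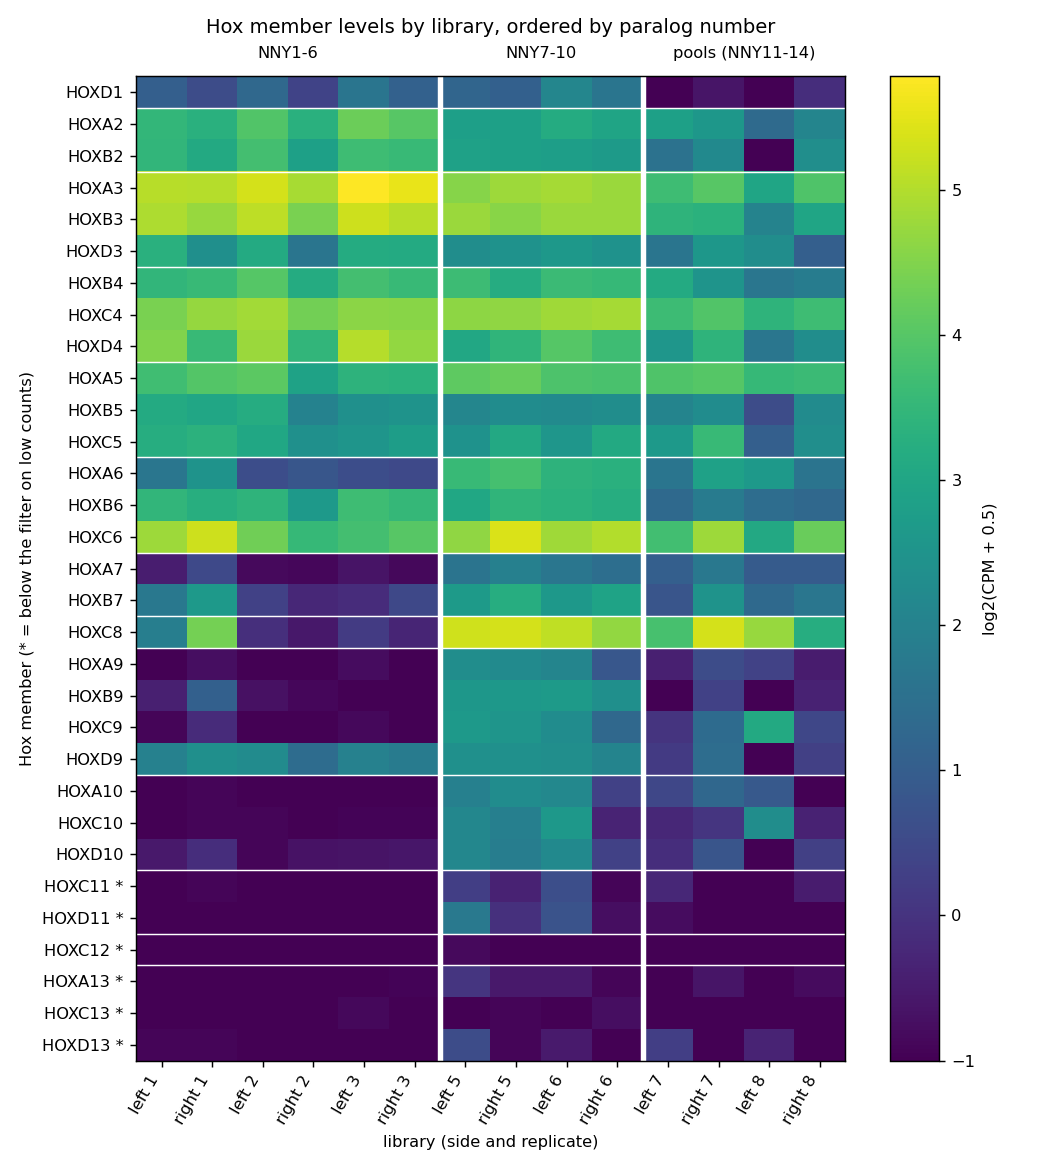
Level of 31 Hox members (rows, ordered by paralog number and then cluster) in each library (columns, side and replicate), as log2(CPM + 0.5), with white lines between the 3 library sets. Members of paralogs 9 to 11 other than HOXD9 are mostly dark in NNY1-6 and mostly lighter in NNY7-10. Exceptions include HOXB9 in right 1 (1.63 CPM) and, in right 6, HOXC10 (0.301 CPM), HOXC11 (0.0334 CPM) and HOXD11 (0.1002 CPM).

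The paralog 10 members, which pattern the lumbosacral trunk and limb in mice, were almost absent from replicates 1 to 3. HOXA10 was at 0 CPM in 5 of these 6 libraries and at 0.0326 CPM in right 1, a single count. In replicates 5 and 6 it stood at 3.37 CPM in left 5, 4.41 in right 5, 3.97 in left 6 and 0.735 in right 6. The 2 sets did not overlap, and right 6 was the lowest of its set. HOXC10 had 4 counts in all over replicates 1 to 3, no library exceeding 0.0326 CPM, and was at 3.90 CPM in left 5, 3.31 in right 5, 5.59 in left 6 and 0.301 in right 6. HOXD10 was detected in replicates 1 to 3, from 0.0296 to 0.424 CPM with a median of 0.154, and was at 3.90, 3.16, 4.14 and 0.735 CPM in left 5, right 5, left 6 and right 6. All 3 genes therefore had the same order of sets and the same low library, right 6.

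Among paralog 9 members, regulators of thoracic and lumbar identity in mice, 3 of 4 followed the paralog 10 genes. HOXA9 was at 0.0301 ± 0.0469 CPM (SD, n = 6) in replicates 1 to 3 and at 3.45 ± 1.47 CPM (SD, n = 4) in replicates 5 and 6. HOXC9 was at 0.0798 ± 0.154 and 4.36 ± 1.70 CPM in the same sets, and HOXB9 at 0.342 ± 0.639 and 5.44 ± 0.530 CPM. None of these 3 overlapped between the sets. HOXD9 differed from them in being detected in all 10 single-stomach libraries, from 2.16 to 4.66 CPM (median 3.42) in replicates 1 to 3 and from 3.67 to 4.81 CPM (median 4.71) in replicates 5 and 6. Its ranges overlapped, with a ratio of means of 1.28.

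The members of paralogs 11 to 13, which pattern the distal limb, the urogenital tract and the hindgut in mice, were at or near 0 counts in replicates 1 to 3. HOXD11 had 0 counts in each library of replicates 1 to 3, which allows up to 0.0829 to 0.129 CPM by library at 3 counts. It was at 2.81 CPM in left 5, 0.468 in right 5, 1.16 in left 6 and 0.1002 in right 6. HOXC11 was at 0.698, 0.284, 1.06 and 0.0334 CPM in these 4 libraries and had 1 count over replicates 1 to 3. HOXA13, a regulator of hindgut and digits, was at 0.534, 0.184, 0.190 and 0.0334 CPM against 1 count over replicates 1 to 3. In right 6 HOXC11 and HOXA13 rested on 2 counts each, levels within what 0 counts allow in replicates 1 to 3. HOXD11 rested on 6 counts there, within the 0.129 CPM that 0 counts allow in right 2 but above the 0.0978 CPM or less allowed in the other libraries of replicates 1 to 3. The separation of HOXC11 and HOXA13 is therefore not distinguishable in right 6 at this depth, nor is that of HOXD11 from right 2. These 3 are among the 13 counted as higher. HOXD13 was at 0.986 CPM in left 5 and at 0.0334, 0.208 and 0 CPM in right 5, left 6 and right 6, and its sets overlapped. HOXC12 had 3 counts in the whole table, all in left 5, and HOXC13 had 2 counts in replicates 1 to 3, 8 in replicates 5 and 6 and 0 in the pools.

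In the middle of the clusters the change of level differed by gene. Of 3 paralog 6 members, 1 was higher without overlap, and HOXB6 and HOXC6 overlapped between the single-stomach sets. HOXC8, a regulator of thoracic identity, was at 3.23 CPM in left 1, 19.9 in right 1, 0.444 in left 2, 0.172 in right 2, 0.636 in left 3 and 0.311 in right 3. It was at 38.7 CPM in left 5, 40.02 in right 5, 34.3 in left 6 and 25.02 in right 6, above every library of replicates 1 to 3. Right 1 was the highest library of its set by a wide margin. HOXA7 was at 0.240 ± 0.337 CPM (SD, n = 6) and 2.70 ± 0.460 CPM (SD, n = 4) in replicates 1 to 3 and in replicates 5 and 6, and HOXA6 at 1.99 ± 1.66 and 10.97 ± 1.755 CPM, neither overlapping. HOXB7 was 3.73 times as high on average in replicates 5 and 6, but right 1 at 5.90 CPM lay above left 6 at 5.63 CPM. HOXA7, HOXA6 and HOXB9 were also highest in right 1 among replicates 1 to 3, at 0.913, 5.12 and 1.63 CPM.

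Paralogs 4 and 5 overlapped between the single-stomach sets in all 6 members. HOXA5, required in mice for development of the lung and of the stomach lining, was at 11.7 ± 3.58 CPM (SD, n = 6) in replicates 1 to 3 and 15.7 ± 1.88 CPM (SD, n = 4) in replicates 5 and 6. HOXC4 was at 23.5 ± 3.01 and 26.4 ± 2.01 CPM and HOXB4 at 11.7 ± 2.34 and 10.9 ± 1.55 CPM. HOXB6, HOXC5 and HOXC6 overlapped as well, with ratios of means of 0.933, 0.935 and 1.52. The member of this range with the lowest ratio was HOXD4, at 21.3 ± 8.57 CPM in replicates 1 to 3 and 11.46 ± 3.197 CPM in replicates 5 and 6, a ratio of 0.539.

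At the low-numbered end the order of the sets turned for some genes. HOXA2, which patterns the second pharyngeal arch and hindbrain, ran from 9.44 to 18.5 CPM (median 12.8) in replicates 1 to 3 and from 6.55 to 8.49 CPM in replicates 5 and 6. HOXA3, required in mice for thymus and parathyroid, ran from 28.97 to 54.4 CPM (median 36.4) and from 22.8 to 28.6 CPM. These were the 2 members that were lower in replicates 5 and 6 without overlap, HOXA3 by a narrow margin. HOXB2, HOXB3 and HOXD3 overlapped, with ratios of means of 0.630, 0.849 and 0.718. HOXD1 overlapped too, with a ratio in the other direction, 1.55.

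**Figure D2:**
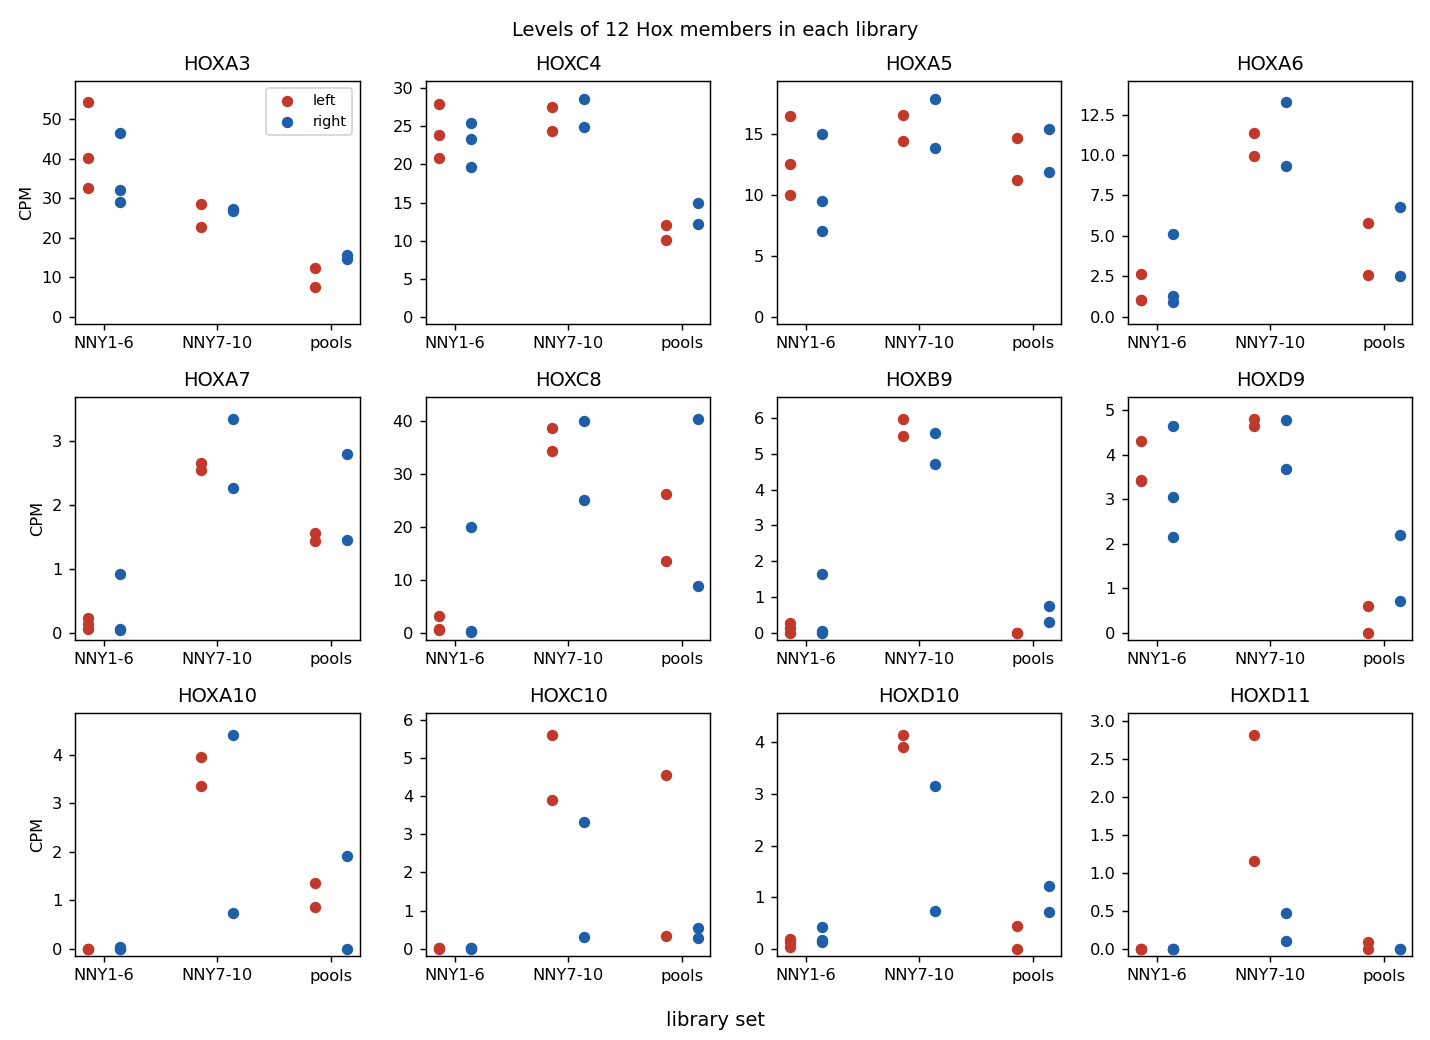
CPM of 12 Hox members in each library, by library set (x axis) and side (red left, blue right), with the CPM axis starting near 0 for each gene. HOXA10 lies at or below 0.0326 CPM in NNY1-6 and between 0.735 and 4.41 CPM in NNY7-10, whereas HOXD9 overlaps between these sets.

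As a share of all Hox counts, paralogs 9 to 13 took 1.40% to 2.90% in the 6 libraries of replicates 1 to 3, with right 1 the highest. In replicates 5 and 6 they took 13.4% in left 5, 10.5% in right 5, 12.03% in left 6 and 5.27% in right 6. All 4 lay above every library of replicates 1 to 3. The exact 95% binomial interval for right 6, which covers counting error only, was 4.93% to 5.64%, and that of left 6 was 11.54% to 12.5%. Paralogs 1 to 3 took 34.3% to 54.1% in replicates 1 to 3 and 26.3% to 32.2% in replicates 5 and 6. A share falls where other members rise: as CPM of the unscaled library total, paralogs 1 to 3 overlapped, at 78.6 to 149 in replicates 1 to 3 and 76.2 to 88.3 in replicates 5 and 6, whereas paralogs 9 to 13 did not, at 2.51 to 7.30 and 13.5 to 37.8. The shares set members of unlike length side by side, so they are read between libraries and not between paralog groups.

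**Figure D3:**
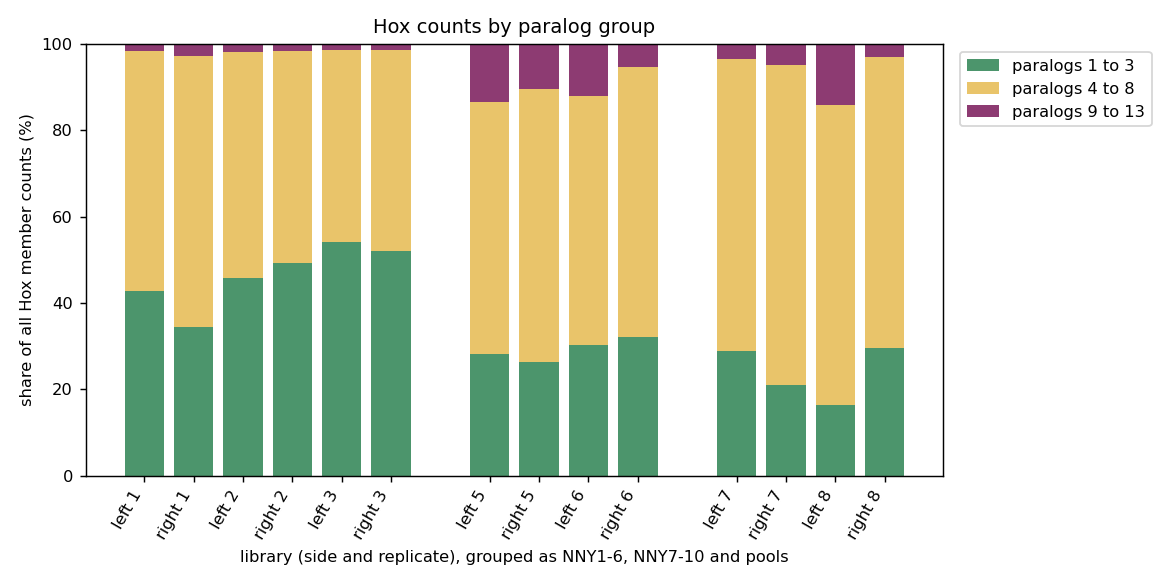
Share of all Hox member counts taken by paralogs 1 to 3, 4 to 8 and 9 to 13 (stacked bars, %) in each library, grouped by library set. Paralogs 9 to 13 take at most 2.90% in NNY1-6 and at least 5.27% in NNY7-10.

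Other genes moved with this division. CDX4, a caudal homeobox regulator of posterior Hox genes, was between 0 and 0.276 CPM in replicates 1 to 3 and between 3.54 and 7.81 CPM in replicates 5 and 6. CDX2, the intestinal member of that family, overlapped, from 11.6 to 55.3 CPM against 43.4 to 49.2 CPM. SOX2, a factor of foregut and stomach endoderm, ran from 39.4 to 129 CPM in replicates 1 to 3 and from 4.63 to 18.4 CPM in replicates 5 and 6, and FOXF1, a factor of gut mesenchyme, from 111 to 223 CPM and from 39.2 to 84.2 CPM. The choice of these 4 genes was made with their values known. Of 10 stomach marker entries, which include SOX2 and FOXF1, the summed level was 521 to 756 CPM in replicates 1 to 3 and 260 to 397 CPM in replicates 5 and 6, while the digestive markers PGC (entry PEPC) and GKN1 reached at most 0.909 CPM and 0.0668 CPM in any library. The 6 intestinal entries found, which include CDX2 and CDX4, summed to 16.2 to 62.5 and 56.4 to 61.9 CPM. The 5 epidermal entries summed to 202 to 579 CPM and 953 to 1183 CPM, without overlap. The 8 neural entries (20.7 to 96.5 and 57.6 to 113 CPM), the 6 pronephric entries (146 to 395 and 142 to 235 CPM), the 7 skeletal muscle entries (3.98 to 16.8 and 6.10 to 14.2 CPM) and the 2 tail bud entries (0.345 to 3.26 and 0.701 to 1.17 CPM) overlapped. The neural sum in replicates 5 and 6 was nearly all TBB3, at 55.7 to 111.75 CPM, against 4.23 to 87.5 CPM in replicates 1 to 3. Of the 6 neural entries past the filter, 0 were higher and 1 was lower without overlap. Total counts were higher too, from 47441280 to 62707669 in replicates 5 and 6 against 21525694 to 34229305 in replicates 1 to 3. Their part in the Hox differences was not tested.

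Between left and right, no Hox member passed the test in all 14 libraries. With side and library source fitted together, edgeR's quasi-likelihood test called 0 of 26 members at a Benjamini-Hochberg adjusted p of 0.05, and 0% of all 23271 rows. At an unadjusted p of 0.05 it had 0 members and 247 rows, and DESeq2 with the same terms also called 0 members and 0 rows. Log2 folds, left over right, were positive for 13 members and negative for 13, with a median of -0.01 beside 0.01 over all rows. The 4 members with the smallest unadjusted p were HOXC6, HOXB4, HOXC5 and HOXC10. HOXC6 was at 8.03 to 27.6 CPM on the left (median 19.3) and 11.2 to 41.8 CPM on the right (median 27.2), with a log2 fold of -0.53 ± 0.30 (SE; edgeR adjusted p = 0.99998). HOXB4, known for its role in blood stem cells, was at 2.65 to 15.4 CPM on the left (median 11.8) and 3.10 to 11.4 CPM on the right (median 8.65), with a log2 fold of 0.32 ± 0.21. HOXC5 had a log2 fold of -0.45 ± 0.30 and HOXC10 of 1.63 ± 1.27. Single libraries moved 3 of these values: HOXC10 was 3.59 without right 5 and 0.99 without left 6, HOXC5 was -0.23 without right 7 and -0.26 without left 8, and HOXB4 was 0.13 without left 7. The sides overlapped for each of the 4.

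The width of the errors differed along the clusters. Standard errors of the left-right log2 fold were 0.12 for HOXC4, 0.17 for HOXB6 and 0.20 for HOXA5, and 1.24 for HOXA9, 1.23 for HOXB9 and 1.32 for HOXA10. A side difference of the size of these errors in the high-numbered members would not have been detectable in this fit. The errors were smaller with the library sets, defined from the counts, as terms: 0.57 for HOXA9, 0.83 for HOXB9 and 0.67 for HOXA10. That fit called 0 of 26 members, with HOXC10 at 1.69 ± 0.68. With each single-stomach pair as a block and all pools together in a further block, as pool numbers pair no animals, edgeR called 0 of 29. Under an unadjusted 0.05 it had HOXD13 (4.31 ± 0.97), HOXD11 (2.90), HOXC10 (2.08) and HOXB7 (-0.70). HOXD13 had 8 and 4 counts in the left pools and 0 in the right pools.

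Within the 5 single-stomach pairs the edgeR test with the pair as a block again called 0 members of 28 tested, and 0% of 23768 rows, with 5 members and 1360 rows under an unadjusted 0.05. DESeq2 on the same pairs called 0.548% of rows with an adjusted p and 0 Hox members, 5 of which were under an unadjusted 0.05. Log2 folds were positive, that is higher on the left, for 21 of the 28 members with a median of 0.22, beside 11782 positive and 11986 negative among all rows and a median of 0.00. All 7 members of paralogs 1 to 3 and 8 of 9 of paralogs 9 to 13 were positive, and 6 of 12 of paralogs 4 to 8. Marker lists of the stomach and of other tissue leaned with side in the same fit. Of 8 stomach entries tested, 7 were positive, the median was 0.34, and 5 of the 8 were under an unadjusted 0.05. All 6 neural crest entries were positive with a median of 1.39, 5 of them under an unadjusted 0.05, SOX10 among them at 2.45 ± 0.47 (edgeR adjusted p = 0.506). Their summed level was 57.7 CPM on the left and 20.9 on the right in replicate 1, 32.0 and 6.68 in replicate 2, 33.7 and 24.1 in replicate 3, 9.18 and 9.85 in replicate 5, and 10.9 and 5.41 in replicate 6. All 4 liver entries were negative with a median of -0.67, each under an unadjusted 0.05. DESeq2 called 2 of the neural crest entries higher and all 4 liver entries lower on the left, and of the stomach entries 1 higher and 1 lower. Their part in the Hox values was not tested. The members with the smallest unadjusted p in edgeR were HOXD11, HOXD1, HOXB3 and HOXD4.

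In each pair HOXD1, a retinoic acid responsive member, had its higher level on the left. It stood at 1.56 CPM on the left and 0.978 on the right in replicate 1, 1.95 and 0.776 in replicate 2, 2.63 and 1.67 in replicate 3, 1.83 and 1.62 in replicate 5, and 3.83 and 2.62 in replicate 6. Its log2 fold was 0.63 ± 0.18 (SE; edgeR adjusted p = 0.711). The hindbrain and neural crest regulators HOXB3 (log2 fold 0.27 ± 0.10, adjusted p = 0.830) and HOXB2 (0.31 ± 0.14, adjusted p = 0.880) were the other members higher on the left in 5 of 5 pairs. HOXB3 was nearly level in replicate 6, at 26.65 CPM on the left and 26.57 on the right, as was HOXB2 in replicate 5, at 6.92 and 6.66 CPM. How many of all rows were higher on the left in 5 of 5 pairs was not counted. HOXD4 was higher on the left in 4 of the pairs, at 22.2 and 11.4 CPM in replicate 1, 26.6 and 10.6 in replicate 2, 31.8 and 25.1 in replicate 3 and 15.5 and 12.2 in replicate 6, and lower in replicate 5 at 7.93 and 10.2 CPM. Its log2 fold was 0.52 ± 0.21 (adjusted p = 0.859). Without replicate 2 the log2 folds of HOXD4 and HOXB3 were 0.32 and 0.16. HOXD11 had counts in replicates 5 and 6 alone among the pairs, and was higher on the left in both, with 2.81 CPM against 0.468 and 1.16 CPM against 0.1002. The fitted log2 fold was 2.90 ± 0.50 in edgeR (adjusted p = 0.567) and 1.12 ± 3.04 in DESeq2, which gave no adjusted p.

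The pairs did not share a direction along the clusters. In replicate 6, all 7 tested members of paralogs 9 to 13 were higher on the left, with a median difference of 1.22 on the log2(CPM + 0.5) scale, beside 0.12 for paralogs 1 to 3, 0.06 for paralogs 4 to 8 and 0.00 for all rows. HOXC10 was at 5.59 CPM in left 6 and 0.301 in right 6, and HOXA10 at 3.97 and 0.735 CPM. In replicate 1 the same 7 members were all lower on the left, with a median of -0.40. Of these 7, HOXA9, HOXA10 and HOXC10 had 0 counts on the left and at most 3 on the right, so that 3 of the 7 directions were not distinguishable at this depth. There the widest difference was in HOXC8, at 3.23 CPM on the left and 19.9 on the right, followed by HOXB9 at 0.261 and 1.63 CPM. In replicate 2 the shift was in the other groups. All 7 members of paralogs 1 to 3 and 11 of 12 of paralogs 4 to 8 were higher on the left, each group with a median of 0.67. HOXA5, at 16.5 CPM in left 2 and 6.98 in right 2, and HOXB5, at 8.61 and 3.49 CPM, were among them. Replicate 3 had medians of 0.22, 0.10 and 0.00 for the 3 groups, and replicate 5 of -0.04, -0.27 and 0.09. In replicate 5, 11 of 12 members of paralogs 4 to 8 were lower on the left, whereas HOXD11 and HOXD13 were higher.

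**Figure D4:**
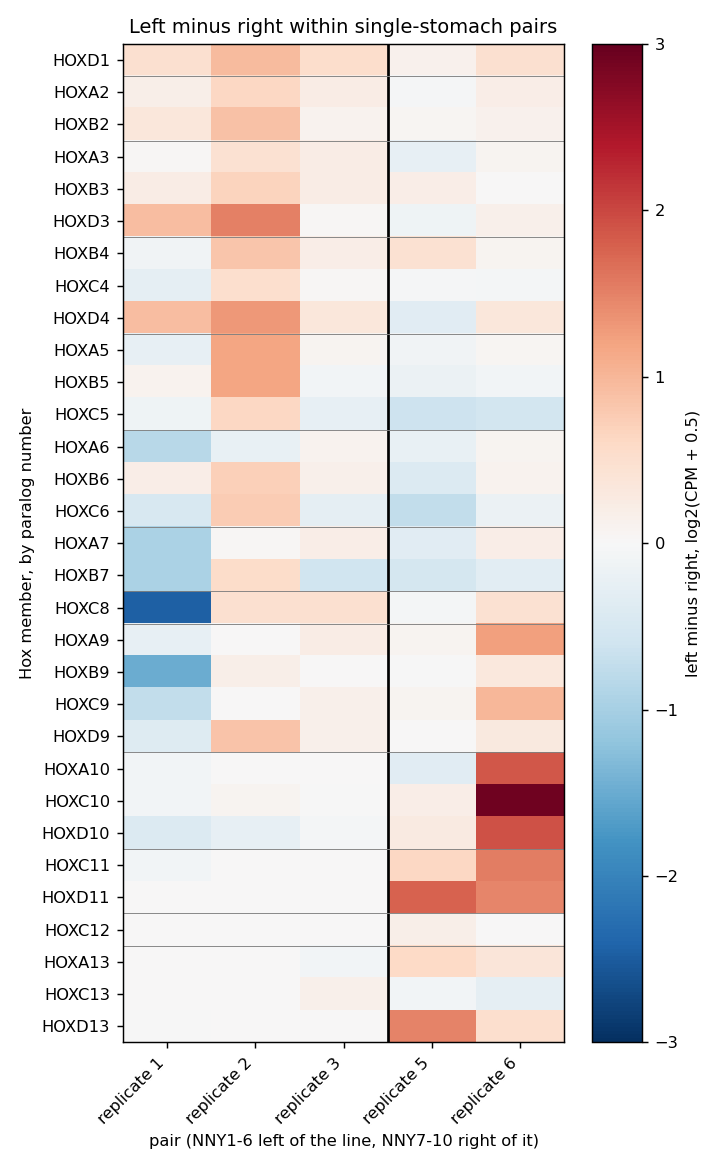
Left minus right difference of 31 Hox members on the log2(CPM + 0.5) scale (colour) within each single-stomach pair (columns), ordered by paralog number. The paralog 10 members are red (higher on the left) in replicate 6, and HOXC8 is blue (lower on the left) in replicate 1.

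In the pairs of replicates 1 and 6, in which paralogs 9 to 13 moved in opposite directions, other marker lists were read beside them. Intestinal entries summed to 62.5 CPM in right 1 and 44.6 in left 1, liver entries to 8855 and 4611 CPM, and pronephric entries to 146 and 395 CPM. Epidermal entries summed to 521 and 202 CPM there, and CDX4 was at 0.228 and 0.195 CPM. In replicate 6, intestinal entries summed to 56.4 CPM on the right and 58.6 on the left, and CDX4 was at 3.54 and 7.81 CPM. Liver entries summed to 3701 and 3103 CPM in that pair, pronephric entries to 142 and 171 CPM, and epidermal entries to 953 and 986 CPM. Their part in the Hox differences was not tested.

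Most Hox members were lower in pools than in single-stomach libraries, and most members of paralogs 1 to 3 were called. The edgeR test of library source, with side as a term, called 11 of 26 members lower in the pools and 0 higher, beside 17.7% of all rows lower and 12.7% higher. With library totals in place of scaled totals, calls over all rows shifted to 1881 higher and 5264 lower from 2955 and 4127, with the median log2 fold of all rows at -0.27 in place of -0.10, and the Hox calls were again 11 lower and 0 higher. The called members were 6 of 7 tested in paralogs 1 to 3, 4 of 12 in paralogs 4 to 8 and 1 of 7 in paralogs 9 to 13. In 8 of the 32 members, all 8 past the filter, every pool lay below every single-stomach library, beside 11% of the rows tested. Log2 folds were negative for 22 of the 26 members, with a median of -1.01. Medians were -1.69 for paralogs 1 to 3, -0.61 for paralogs 4 to 8 and -1.02 for paralogs 9 to 13. Standard errors were wider for most high-numbered members, such as 1.69 for HOXB9 against 0.25 for HOXB3. The calls by paralog group therefore do not show that the difference was confined to the low-numbered end. This fit takes both libraries of a title as independent. With 1 side at a time, 5 single-stomach libraries against 2 pools, edgeR called 7 of 29 members lower on the left, beside 6.54% of rows, and 6 of 26 on the right, beside 7.77%, with 0 higher on either side. HOXB6, HOXB3, HOXA3 and HOXC4 were called on both sides.

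HOXB6 had the smallest p of these. It was at 1.99 CPM in left 7, 3.04 in right 7, 2.20 in left 8 and 1.95 in right 8, and ran from 5.91 to 12.2 CPM over the single stomachs (median 9.82), with a log2 fold of -2.04 ± 0.22 (SE; edgeR adjusted p = 2.7e-05). HOXB3 was at 10.05, 9.55, 3.56 and 7.36 CPM in the pools in that order and at 21.04 to 38.2 CPM (median 26.7) in the single stomachs (-1.89 ± 0.25, adjusted p = 0.000111). Neither gene overlapped between pools and single stomachs. HOXD1 (-3.62 ± 0.72, adjusted p = 0.00183) was at 0 counts in both left pools, and HOXB2 (-1.69 ± 0.60, adjusted p = 0.0437) at 0 in left 8. The call of HOXB2 held in 4 of the 14 fits that each left out 1 library. HOXD9 fell from 3.89 ± 0.892 CPM (SD, n = 10) to 0.883 ± 0.936 CPM (SD, n = 4) in the pools (-2.17 ± 0.57, adjusted p = 0.0104). HOXC4, HOXA3, HOXB4, HOXA2 and HOXD4 were also called, with log2 folds from -1.004 to -1.55. Against replicates 5 and 6 alone, a set defined from the counts, HOXA2 (-0.73) and HOXD4 (-1.09) were not called.

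HOXA5 stood at the same mean in both, 13.3 ± 3.52 CPM (SD, n = 10) in single stomachs and 13.3 ± 2.03 CPM (SD, n = 4) in pools, with a log2 fold of 0.00 ± 0.22. For HOXC8 (0.45 ± 1.14), HOXC9 (0.55 ± 1.34) and HOXA10 (-0.26 ± 1.52) the pools fell between or across the single-stomach sets, and the errors were wide. The pools were also compared with each set of single stomachs. These sets were defined from the counts, so the edgeR calls are read as descriptions and not as tests. Of 23 members tested against replicates 1 to 3 alone, 3 were called higher in the pools and 11 lower. Of all rows 16.1% were higher and 18.4% lower. The higher members were HOXA7, HOXC9 and HOXA10. They had 45, 15 and 1 counts over replicates 1 to 3 and 114, 168 and 67 over the pools. They could thus pass the filter largely through the pools, and no result is drawn from their direction. Of 28 members tested against replicates 5 and 6 alone, 0 were higher and 14 lower, beside 13.5% and 19.5% of rows. HOXD11, HOXB9, HOXA9, HOXA6 and HOXB7 were among the lower members there. Of these, HOXD11, HOXB9 and HOXA9 did not pass the filter against replicates 1 to 3 and are high in replicates 5 and 6. No result is drawn from their direction.

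**Figure D5:**
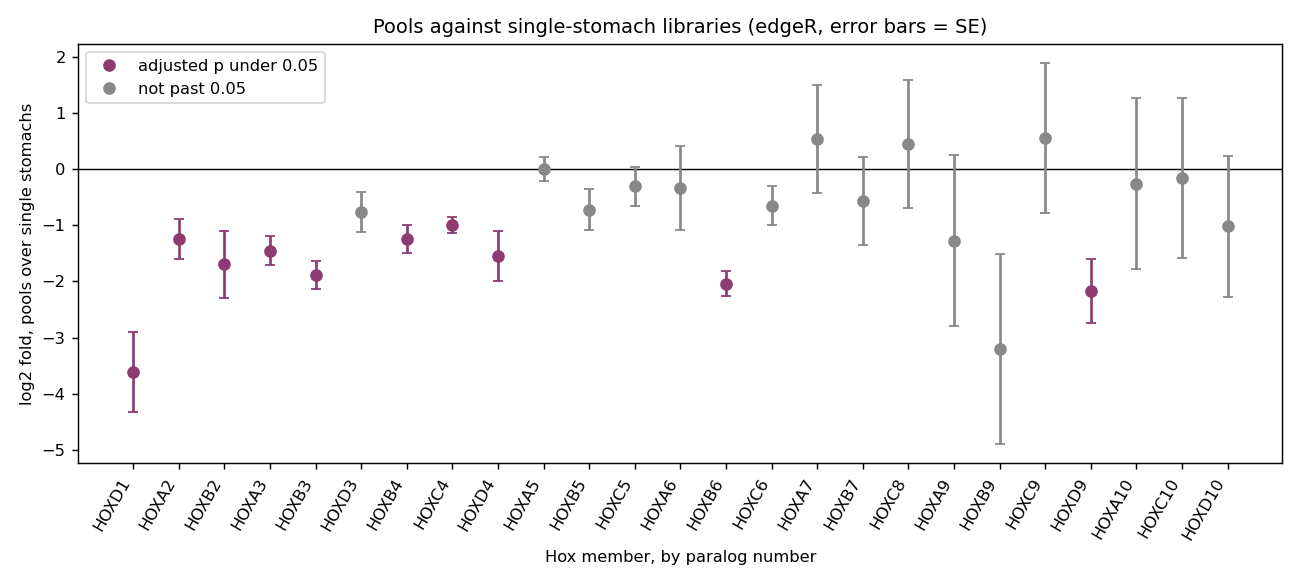
Log2 fold, pools over single-stomach libraries, of 25 tested Hox members ordered by paralog number (edgeR; error bars are standard errors; coloured points have an adjusted p under 0.05). Of the 6 members of paralogs 1 to 3 shown, 5 are called lower, while most high-numbered members other than HOXD9 have wide errors.

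The pools also differed among themselves at the high-numbered end. Left 8 held HOXC9 at 8.11 CPM and HOXC10 at 4.55 CPM, against 0.520, 2.11 and 0.866 CPM for HOXC9 and 0.347, 0.539 and 0.289 CPM for HOXC10 in left 7, right 7 and right 8. In the same library HOXB9, HOXD9 and HOXD10 had 0 counts, which allows up to 0.227 CPM at 3 counts. HOXC8 was highest in right 7, at 40.4 CPM, with 26.3 in left 8, 13.6 in left 7 and 8.87 in right 8. Paralogs 9 to 13 took 14.0% of Hox counts in left 8 (exact 95% binomial interval 12.3% to 15.95%) and 3.37%, 4.97% and 2.99% in left 7, right 7 and right 8. These shares rest on 199 counts in left 8 and on 48, 201 and 47 in the others. Left 8 also had the highest neural and epidermal sums among the pools, 200 and 117 CPM against at most 101.6 and 19.5 CPM. It had the lowest pronephric sum, 34.02 CPM. The neural sum there was nearly all TBB3, at 196 CPM, and 6 of the 8 neural entries had 0 counts. TBB3 also made up most of the neural sum in the other pools, at 85.9 to 93.6 CPM. The part of these marker levels in its Hox levels was not tested.

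The side difference was not shown to depend on the library source. The interaction of side with source called 0 of 29 members tested and 0% of rows by edgeR, with 3 members and 1911 rows under an unadjusted 0.05, and DESeq2 called 0 members and 141 rows. The 3 members were HOXD1, HOXD9 and HOXB2, with adjusted p = 0.315, 0.503 and 0.614.

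Cofactors and regulators of Hox genes were read from lists. Of 6 cofactor entries found, the PBX, MEIS and PKNOX homeodomain partners that bind DNA with Hox proteins, 2 were lower in the pools, PBX3 (log2 fold -0.87 ± 0.26, edgeR adjusted p = 0.0219) and MEIS2 (-0.96 ± 0.32, 0.0331). Of 14 tested entries of the list of upstream regulators, 7 were lower in the pools and 1 higher. The retinoic acid degrading enzyme CYP26A1 (entry CP26A) was the lowest in p, at 31.3 to 55.5 CPM in the single stomachs and 6.90 to 15.1 CPM in the pools (-2.08 ± 0.19, adjusted p = 1.02e-05). The retinoic acid receptor RARB had a log2 fold of -1.15 ± 0.28 (adjusted p = 0.00627). The entry called higher was CDX2 (1.22 ± 0.32, adjusted p = 0.00962). Of 26 chromatin regulators, the Polycomb and Trithorax genes that hold Hox clusters silent or active, 4 were lower and 2 higher, with a median of -0.19. Of all rows 17.7% were lower and 12.7% higher, and 26 chromatin entries hold shares near these. Between the sides, edgeR called 0 entries of these 3 lists in all 14 libraries, where DESeq2 also called 0 rows, and 0 in the pairs. At an unadjusted p of 0.05 the pairs held 1 cofactor, 5 upstream and 0 chromatin entries. DESeq2 called 1 of them in the pairs, CRABP2 (entry RABP2), a cellular carrier of retinoic acid, at a log2 fold of 0.57 ± 0.15 (DESeq2 adjusted p = 0.0308). Summed marker levels moved with the pools too: liver entries summed to 16328 to 22769 CPM in the pools and 1250 to 8855 CPM in the single stomachs, intestinal entries to 94.7 to 160 and 16.2 to 62.5 CPM, and epidermal entries to 9.89 to 117 and 202 to 1183 CPM. Their part in the Hox differences was not tested.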

How the data were processed

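RNA of left and right stomach sides was sequenced by strand-specific libraries, per the labels' protocols. The authors deposited a table of raw counts per transcript row and a second table of the same counts divided by size factors, a normalized signal from which whole reads were recovered for 100% of values within 0.01 reads. The submitters' processing notes name Trimmomatic, Bowtie2 2.1.0, Bowtie, SAMtools 0.1.19 and DESeq, and how strand was used in counting is not given in the sources used here. Raw counts of all rows were fitted with edgeR 4.0.16 in R 4.3.3 (TMM scaling, filterByExpr, quasi-likelihood test, Benjamini-Hochberg threshold 0.05 over all rows tested), with side and library source as terms, or side and pair among single stomachs. DESeq2 1.42.0 was the alternative. CPM were computed on TMM-scaled totals, and a pseudocount of 0.5 CPM was used for log2 differences within pairs. Standard errors were the log2 fold divided by the square root of F. Exact (Clopper-Pearson) 95% intervals and the floor of 3 counts cover counting error only. The fits were tested on simulated data.

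The members, the gene lists and the tests were chosen with earlier results of these data known. Members were named with full values if called between sides or in the interaction, if highest in mean CPM in their cluster, if among the 4 smallest p of either side comparison, if among the 6 largest changes called in the pools, or if of paralog 9 or above. The marker and regulator lists hold human UniProt entry names, and up to 3 entries a list were named by smallest p. Same-side libraries were compared with each other and none agreed within sampling noise. Separate animals are stated for the single stomachs. For single stomachs left and right share a title, so the titles were taken as pairs. Their deviations from the group means correlated at 0.623, 0.639, 0.641, 0.773 and 0.846 in replicates 1, 2, 3, 5 and 6. These values include the difference between library sets. Within the library sets they were 0.472, 0.255, 0.0888, 0.462 and 0.462. The last 2 are equal by construction, as that set has 2 libraries a side. Libraries of unlike titles were not compared, so these values do not establish the pairing. Pool numbers pair no animals. No genome came with the data, so no sequence or position is given. A member is not reported here by name, though the counts over all members include it.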

Additional observations from a re-analysis of the deposited data

Results flagged for a closer look

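In 12 of 63 groups of 7 libraries of 1 side, 1 library stood far from the nearest other of its side. The rule's rate of about 1 in 20 groups holds for normal values of 1 population. CPM here hold many zeros and mix library sets, so that rate does not apply. On the right, replicate 5 was far above the others for HOXA9 (4.242 CPM, the next library at 1.303), HOXC9 (5.345 CPM), HOXC10 (3.307 CPM), HOXD10 (3.157 CPM) and HOXD11 (0.4676 CPM). On the left, replicate 5 was far above for HOXD11 (2.814 CPM), HOXA13 (0.5341 CPM) and HOXC12 (0.06163 CPM, 3 counts). These groups mix library sets that differ in the same genes. HOXC13 stood out at 0.05528 CPM in left 3 and 0.1002 CPM in right 6, both a few counts. HOXB5 stood out at 7.628 CPM in right 1 and HOXD4 at 25.07 CPM in right 3.

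HOXB2 and HOXD1 were higher on the left in 5 of 5 single-stomach pairs, HOXB2 in replicate 5 by 6.92 against 6.66 CPM only. In the pools HOXB2 was at 2.43 and 0 CPM on the left and 4.16 and 4.62 on the right. HOXD1 had 0 counts in both left pools, where 3 counts are 0.260 and 0.227 CPM, and was at 0.147 and 0.433 CPM on the right, so right 7 is not distinguishable from the left. Pool numbers pair no animals. By the interaction of side with source in edgeR their adjusted p was 0.614 and 0.315.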

How the results depend on the processing

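Over 434 recomputed values, 279 of 295 values of named members kept direction and side of the threshold, 16 were weaker and 0 reversed. This tally is no measure of stability, as the members were picked from these data by p or fold. Members named for the side comparisons lay far above the threshold, so staying there was nearly assured. Most of the 16 weaker values were of HOXB2 in the pools, and 10 of them each left out 1 library. Log2 folds of HOXB2 ran from -1.99 to -1.20 over the 14 such fits. Its call held only without right 5, right 6, left 8 or right 8. Against replicates 5 and 6 alone its log2 fold was -1.46 and it was not called. With 1 side at a time, an alternative added after seeing the data that enters each single stomach once, the pool comparison called 2694 rows and 7 Hox members on the left and 2675 rows and 6 Hox members on the right, from fewer libraries; HOXB2 was called on neither side, and HOXD1 and HOXD9 on the left only. At a threshold of 0.01 the pool comparison called 4129 rows and 7 Hox members. Leaving out 1 library gave 5786 to 7033 rows and 9 to 11 Hox members. Between the sides, edgeR with the pairs and the pools as blocks called 0 rows and DESeq2 with the same blocks 13, and DESeq2 with the 3 library sets 6. In the pairs DESeq2 called 105 rows, and in the interaction 141, in each case with 0 Hox members. Leaving out each library in turn gave 0 rows between sides and 0 Hox members. The 13 members above replicates 1 to 3 in replicates 5 and 6 became 14 without right 1 and 14 without right 6, choices made after seeing the data. The share of all rows tested that were higher rose too, from 18.8% to 20.6% in each setting, so nothing is read from the added member. HOXD11 had a value in 4 of the 5 fits that left out a pair. The causes were not tested. Depth limits members of paralogs 11 to 13, for which a library's 3-count floor was 0.0501 to 0.260 CPM.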
